A study of Mus musculus with 9 samples.

Results

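Histone methylation enzymes were followed as gene families through the entry of mouse male germ cells into meiosis, at the level of mRNA. The families were the KMT2, SETD and SETDB lysine methyltransferases, the SUV39H, EHMT, NSD, SMYD and DOT1L enzymes, KMT5, the PRDM proteins, the EZH enzymes of Polycomb repressive complex PRC2 with its subunits Eed and Suz12, and the KDM lysine demethylases. Members were chosen by gene symbol alone, with a minimum of 30 counts summed over the 9 libraries, and 63 of the 24505 genes in the count table entered. At the lower edge, Prdm6 (31 counts), Prdm14 (37 counts) and Prdm12 (60 counts) were inside the minimum, and Prdm13 (7 counts) and the read-through gene Setdb2-phf11c (0 counts) were outside it.

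Methyl groups on lysines of histones H3 and H4 mark chromatin states. Methylation of H3K4 is found at active promoters and enhancers, of H3K36 and H3K79 over transcribed genes, and of H3K9, H3K27 and H4K20 in repressed chromatin. Methyltransferases with a SET domain (and DOT1L, which lacks one) write these marks, and the demethylases of the KDM1 class (flavin dependent) and the JmjC classes erase them. In male germ cells, H3K9 methylation is needed for chromosome synapsis and H3K4 methylation marks the sites of meiotic recombination.

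All libraries came from Uchl1-EGFP mice outcrossed to CD-1, whose EGFP transgene is driven by the promoter of Uchl1. The signal is bright in spermatogonia and dim in preleptotene (PL) spermatocytes, and cells were sorted on it. All pups were fed WIN 18,446, an inhibitor of retinoic acid (RA) synthesis, daily at 100 µg per g from postnatal day (P) 1, and on P11 each was injected once with RA (10 µl, 10 µg per µl), so the controls carry both treatments too. The 3 groups of 3 libraries were intermediate and type B (In/B) spermatogonia at P17, PL spermatocytes at P19 with no further WIN 18,446 (RA-sufficient PL), and PL spermatocytes at P19 with WIN 18,446 continued after the injection (RA-deficient PL). The study describes the In/B cells as RA-sufficient. RA-deficient PL thus differs from In/B in WIN 18,446 treatment as well as in stage and age, which cannot be told apart. EGFP-positive cells were sorted from the pooled testes of at least 5 pups of a litter per experiment. Which preparation each library came from is not given, so p-values measure the spread between these libraries, which may be partly technical.

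The libraries held 12612959 to 27042274 counts. The RA-deficient PL libraries were deep (25048240 to 27042274 counts) but had fewer genes with any count (14769 to 15327) than the others (16758 to 18434). RA-deficient PL replicate 3 stood apart: its log2 CPM correlated with those of replicates 1 and 2 at 0.862 and 0.855 across genes, against 0.938 between these. In the other groups replicate 1 was least alike, at 0.963 and 0.958 in In/B and 0.957 and 0.953 in RA-sufficient PL. Replicates 2 and 3 there correlated at 0.986 in each group. Over the members, the median log2 difference in size was 0.352 and 0.297 for RA-deficient PL replicate 3 against its others. It was 0.35 and 0.309 for RA-sufficient PL replicate 1, and 0.249 and 0.278 for In/B replicate 1. Kit, a receptor of differentiating spermatogonia, was at 561, 521 and 20.3 CPM in RA-deficient PL replicates 1 to 3, against 20.2 to 41.0 CPM in RA-sufficient PL. The labelled cell types were checked against marker lists. Summed levels of 9 early meiotic genes were 1081 to 1603 CPM in In/B, 3486 to 4735 CPM in RA-sufficient PL and 4090 to 5270 CPM in RA-deficient PL. In each PL group 7 of the 9 were called higher than in In/B and 0 lower. Rec8 was at 17.5, 98.4 and 96.1 CPM in In/B, 45.3, 32.1 and 30.0 CPM in RA-sufficient PL and 29.4, 39.5 and 5.86 CPM in RA-deficient PL. Stra8 was at 54.4, 165 and 150 CPM in In/B, 444, 126 and 121 CPM in RA-sufficient PL and 377, 365 and 81.5 CPM in RA-deficient PL. In RA-deficient PL replicates 1 to 3, Meiob was at 57.5, 49.7 and 238 CPM and Spo11 at 31.6, 27.9 and 124 CPM. The 7 Sertoli cell genes measured (Sox9, Amh, Gata4, Wt1, Clu, Inha and Cldn11) summed to 66.3 to 342 CPM in In/B, 2789 to 3618 CPM in RA-sufficient PL and 286 to 503 CPM in RA-deficient PL, with none of them at 0 in any library, and all 7 were called higher in RA-sufficient PL than in In/B and lower in RA-deficient than in RA-sufficient PL. The 7 spermatogonial genes summed to 3649 to 5338 CPM in In/B, 754 to 852 CPM in RA-sufficient PL, and 3122, 3241 and 1323 CPM in RA-deficient PL. Against In/B, 6 of the 7 were called lower in RA-sufficient PL, and 1 lower and 1 higher in RA-deficient PL. Dmrt1 was at 534 to 711 CPM in In/B, 72.1 to 76.8 CPM in RA-sufficient PL, and 460, 485 and 111 CPM in RA-deficient PL. By the list sum, RA-deficient PL replicates 1 and 2 lay further from RA-sufficient PL than replicate 3 did. The 6 genes of pachytene and later stages summed to 31.4 to 81.6 CPM in In/B, 865, 256 and 225 CPM in RA-sufficient PL, and 4.72, 7.96 and 137 CPM in RA-deficient PL. Of the other lists, 5 of 7 peritubular and stromal genes (list sums of 78.7 to 87.6 CPM in In/B and 168 to 207 CPM in RA-sufficient PL) and 3 of 5 Leydig genes (9.45 to 15.9 and 32.4 to 37.7 CPM) were called higher in RA-sufficient PL than in In/B. In the peritubular and stromal list 1 gene was called lower. Its genes were uneven: Vim was at 3.47 to 18.3 CPM in In/B and 112 to 150 CPM in RA-sufficient PL. Col1a1 was at 48.2 to 70.8 CPM in In/B and 5.96 to 14.7 CPM in RA-sufficient PL. The undifferentiated spermatogonial list summed to 124 to 426 CPM, and the macrophage and endothelial lists to at most 17.1 CPM, in any library. These marker levels move with the comparisons below, and their part in the results was not tested. In bulk libraries, fewer cells of a type and less RNA per cell cannot be told apart.

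The summed scaled level of the families was higher in RA-deficient PL than in the other groups. Summed over the 63 members, the level was 10060, 10970 and 10750 CPM in In/B, 10830, 13270 and 12610 CPM in RA-sufficient PL and 17120, 16890 and 18570 CPM in RA-deficient PL. The RA-deficient PL libraries lay above all others, and the RA-sufficient PL and In/B libraries overlapped on this scaled level. CPM here are counts relative to library size and scaled by the TMM factors of the 9 libraries, so their sum is not a share of the counts. The factor was 1.077 for RA-sufficient PL replicate 1 and 0.9913 for In/B replicate 2, and the overlap depends on this scaling. In each group 31 to 33 members had a mean of at least 100 CPM, and 59 of the 63 had at least 1 CPM.

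**Figure D1:**
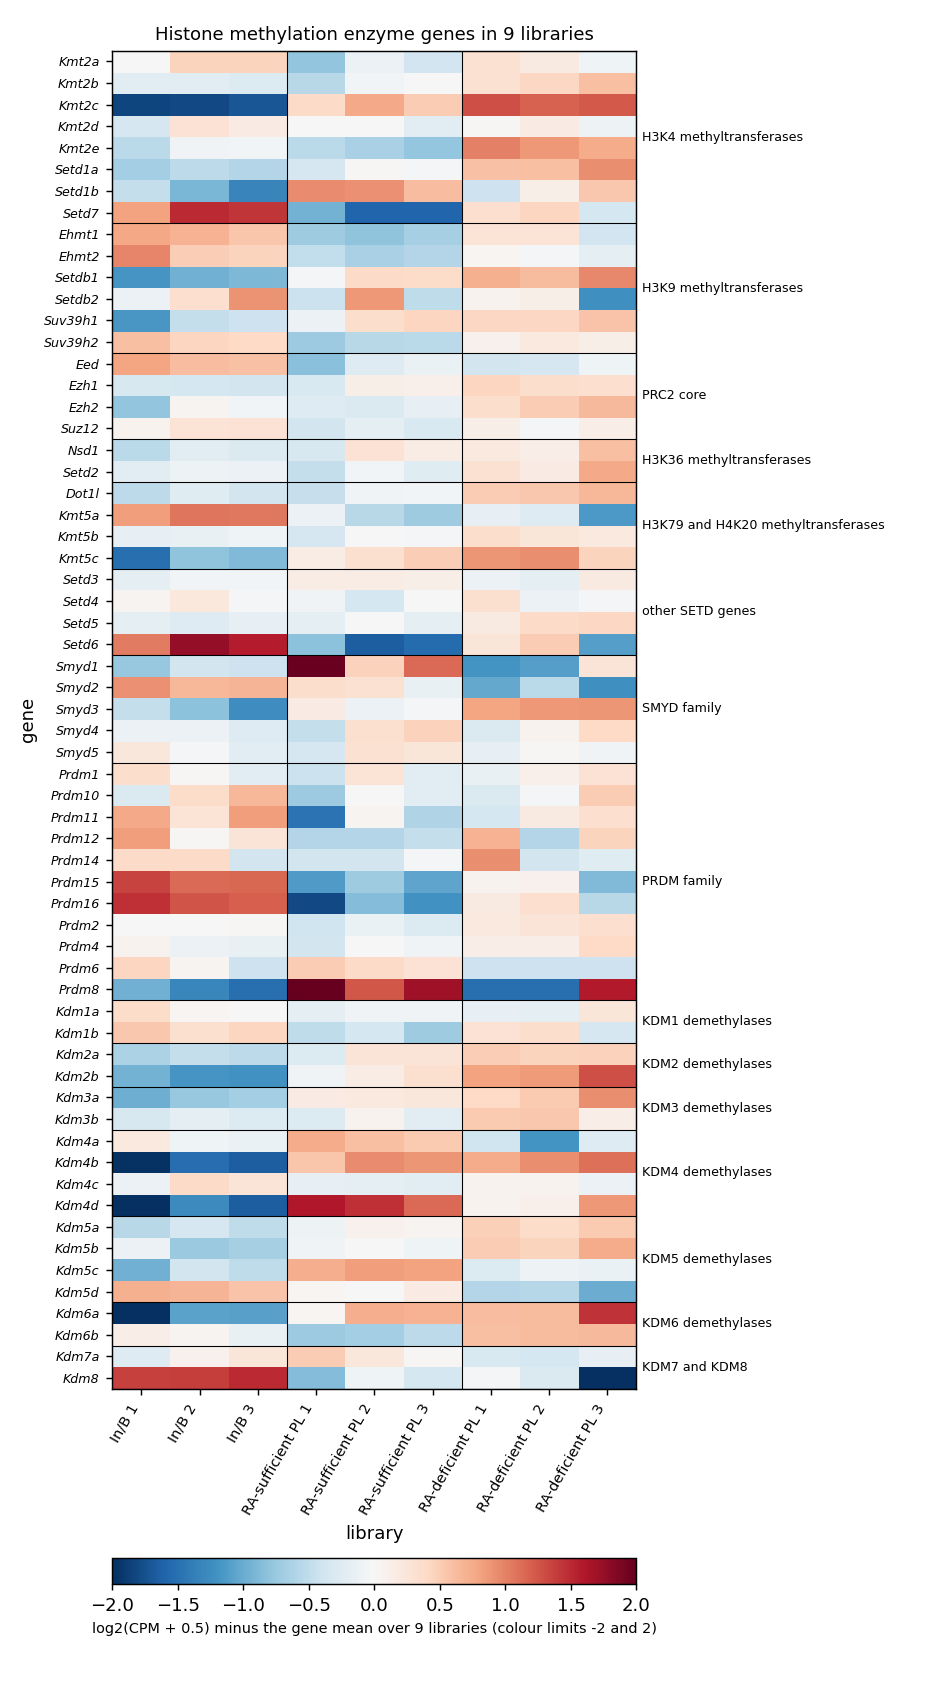
Members (rows, by role) in the 9 libraries (columns), as log2(CPM + 0.5) minus the gene's mean over the 9 libraries, with colours cut at -2 and 2. Kmt2c, Kdm4b, Kdm4d and Kdm6a are low in the 3 In/B libraries, Setd6, Setd7, Prdm15 and Prdm16 are high there, and RA-deficient PL replicate 3 differs from replicates 1 and 2 in several rows.

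A member was called where its fold change was over 2 (log2 fold change over 1 in size) and its edgeR adjusted p, over all genes tested, was under 0.05. Between In/B and RA-sufficient PL, 12 of the 60 members tested were called higher (20%) and 11 lower (18.3%), against 26.1% and 19.3% of all 15001 genes tested. The median log2 fold change was 0.06 for the members and 0.04 for all genes in this comparison. Between In/B and RA-deficient PL, 17 of 60 members were called higher (28.3%) and 7 lower (11.7%), against 11.4% and 11.8% of all 14877 genes tested, with a median of 0.32 for the members and 0.00 for all genes. Both comparisons used the same 3 In/B libraries. Calls in either direction came to 23 members in RA-sufficient PL (38.3%, against 45.4% of all genes) and 24 in RA-deficient PL (40.0%, against 23.2%). With no fold limit, 22 members were higher and 19 lower in RA-sufficient PL at an adjusted p under 0.05 (33.8% and 31.2% of all genes), and 29 were higher and 10 lower in RA-deficient PL (18.4% and 18.3%). The libraries of the groups did not overlap for 21 members that were higher and 21 lower in RA-sufficient PL (35.0% each, against 35.6% and 35.9% of all genes), and for 29 higher and 14 lower in RA-deficient PL (48.3% and 23.3%, against 21.0% and 33.6%).

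The direct comparison of RA-deficient with RA-sufficient PL gave 4 of 60 members higher (6.67%) and 3 lower (5.00%), against 4.47% and 11% of the 15352 genes tested. Smaller differences were mostly in the same direction: at an adjusted p under 0.05 with no fold limit, 23 members were higher in RA-deficient PL (38.3%) and 5 lower (8.33%), against 11% and 12.6% of all genes (28 members in either direction, against 23.6%). Of the 60, 30 were higher in every RA-deficient PL library than in any RA-sufficient PL library and 8 lower, where 20.1% and 27.3% of all genes were. The median log2 difference was 0.39 for the members and -0.09 for all genes. Members were better covered than most genes, with a median of 3324 counts per library against 397 over all genes tested in this comparison, and higher coverage makes a small difference easier to call. Scaling by library size alone moved the median of all genes to -0.31 in RA-deficient PL against In/B and -0.27 against RA-sufficient PL. A change of scaling shifts all genes nearly alike. The member median thus had to stay as far above that of all genes as with TMM (0.32 and 0.48), which adds no support. The members called higher against In/B dropped to 10 of 60 with library-size scaling, where 7.55% of all genes were called higher. The 7 calls lost were those of Dot1l, Kdm2a, Kdm5a, Kdm5b, Kmt2e, Setd1b and Suv39h1, with log2 fold changes of 0.77 to 0.98. The 23 members became 11 with this scaling, against 6.18% of all genes, and 9 without RA-sufficient PL replicate 2 or replicate 3, where the share of all genes dropped too, to 4.02% and 4.14%.

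Promoter sequences are shown for the 4 members called in a comparison with In/B whose start region held a letter match to a factor known in this setting. Of the 63 members, 49 had a window in the RefSeq set for GRCm38.p6, a later build than the mm9 of the counts. Each window runs from 250 bases before to 50 bases after the annotated start. Both strands were searched for CNCCTCAG (STRA8), GCGGGAA (E2F), TGACGTCA (the cyclic AMP response element, CRE) and AGGTCA (a retinoic acid receptor half-site). A role in meiotic initiation has been proposed for STRA8, and the study argues that STRA8 is not strictly required for it. No member window held CNCCTCAG, which 7.97% of all 27025 windows held. GCGGGAA was in 5 of the 49 (10.2%, against 4.66% of all), TGACGTCA in 1 (2.04%, against 1.88%) and AGGTCA in 4 (8.16%, against 16% of all). The windows below are given 5′ to 3′ on the strand of the gene, with the matched letters in capitals: Suv39h2 (chr2:3474937-3475236, minus strand) holds E2F letters in reverse complement and a CRE, Kmt5c (chr7:4739877-4740176, plus strand) E2F letters, Ehmt1 (chr2:24919560-24919859, minus strand) the half-site in reverse complement, and Kdm6a (chrX:18162325-18162624, plus strand) the half-site.
Suv39h2: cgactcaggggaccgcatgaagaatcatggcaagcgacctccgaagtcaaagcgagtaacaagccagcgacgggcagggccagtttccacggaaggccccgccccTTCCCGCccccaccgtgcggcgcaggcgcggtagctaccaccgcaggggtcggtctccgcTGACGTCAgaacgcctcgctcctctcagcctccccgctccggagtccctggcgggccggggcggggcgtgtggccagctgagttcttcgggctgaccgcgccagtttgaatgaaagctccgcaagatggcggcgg
Kmt5c: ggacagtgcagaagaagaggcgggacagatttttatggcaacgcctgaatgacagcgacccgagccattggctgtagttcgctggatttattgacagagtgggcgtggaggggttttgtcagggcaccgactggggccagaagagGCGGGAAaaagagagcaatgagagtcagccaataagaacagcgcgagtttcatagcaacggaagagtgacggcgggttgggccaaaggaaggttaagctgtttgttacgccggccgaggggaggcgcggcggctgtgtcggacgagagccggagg
Ehmt1: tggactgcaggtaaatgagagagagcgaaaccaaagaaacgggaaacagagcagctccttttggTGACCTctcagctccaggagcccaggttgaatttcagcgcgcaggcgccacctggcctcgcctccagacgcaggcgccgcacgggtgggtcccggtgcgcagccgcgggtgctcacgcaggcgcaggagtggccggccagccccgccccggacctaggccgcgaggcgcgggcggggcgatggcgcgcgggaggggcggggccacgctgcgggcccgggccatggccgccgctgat
Kdm6a: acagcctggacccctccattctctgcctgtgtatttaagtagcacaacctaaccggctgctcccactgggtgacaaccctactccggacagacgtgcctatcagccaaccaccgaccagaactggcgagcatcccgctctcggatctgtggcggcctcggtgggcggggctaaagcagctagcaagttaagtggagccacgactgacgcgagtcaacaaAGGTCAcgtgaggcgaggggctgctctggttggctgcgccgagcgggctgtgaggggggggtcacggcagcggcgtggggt
A letter match is a description of the window. The other members with GCGGGAA were Suz12, Prdm10 and Prdm12, and those with AGGTCA were Kdm1a and Kdm4c. Of the 4 members shown, Suv39h2 and Ehmt1 were lower in RA-sufficient PL than in In/B, and Kmt5c and Kdm6a higher.

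Among the 8 H3K4 methyltransferases, Kmt2c rose most. It encodes MLL3, which with KMT2D places H3K4 monomethylation at enhancers (chr5:24777612-25004601, minus strand in mm9). Its level was 189.9, 194 and 208 CPM in the In/B libraries, 884, 1149 and 964 CPM in the RA-sufficient PL libraries and 1655, 1546 and 1591 CPM in the RA-deficient PL libraries. The 3 groups did not overlap, In/B being lowest and RA-deficient PL highest. Kmt2c rose in RA-sufficient PL (log2 fold change 2.40 ± 0.13 (SE), edgeR adjusted p = 1.08e-05) and in RA-deficient PL (log2 fold change 3.18 ± 0.097 (SE), edgeR adjusted p = 6.93e-06). Between the PL groups it was higher in RA-deficient PL by less than 2-fold (log2 fold change 0.67 ± 0.11 (SE), edgeR adjusted p = 0.00759). Its partner in function Kmt2d was not called in any comparison, with log2 fold changes of -0.06, 0.14 and 0.09. Kmt2a (MLL1) and Kmt2b (MLL2), which act at promoters, were not called either: Kmt2a was lower in RA-sufficient PL by less than 2-fold (log2 fold change -0.66 ± 0.19 (SE), edgeR adjusted p = 0.0133), and Kmt2b was higher in RA-deficient PL by less than 2-fold (log2 fold change 0.85 ± 0.11 (SE), edgeR adjusted p = 0.000695).

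Kmt2e, an MLL-family protein whose SET domain has no known methyltransferase activity, was high in RA-deficient PL alone. It measured 294, 406 and 411 CPM in the In/B libraries, 295, 274 and 251 CPM in the RA-sufficient PL libraries and 859, 785 and 718 CPM in the RA-deficient PL libraries. The RA-deficient PL libraries lay above all the others. Kmt2e was called higher there than in In/B (log2 fold change 1.26 ± 0.15 (SE), edgeR adjusted p = 0.000513) and than in RA-sufficient PL (log2 fold change 1.52 ± 0.13 (SE), edgeR adjusted p = 0.000842), and its small decrease from In/B to RA-sufficient PL was under 2-fold (log2 fold change -0.38 ± 0.14 (SE), edgeR adjusted p = 0.0442). In the annotation 11.7% of its exon bases overlap the gene Srpk2, and the strand setting of the counting is not given.

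Setd1a and Setd1b, the catalytic subunits of the COMPASS complexes that place bulk H3K4 trimethylation, changed in different comparisons. Setd1a was called only in RA-deficient PL against In/B (log2 fold change 1.48 ± 0.12 (SE), edgeR adjusted p = 0.000113), and differed by less than 2-fold in the others (0.55 in RA-sufficient PL against In/B). Hsd3b7 is annotated over 51.8% of the exon bases of Setd1a, so its reads can be shared with that gene. Setd1b rose in RA-sufficient PL (log2 fold change 1.78 ± 0.25 (SE), edgeR adjusted p = 0.00032) and in RA-deficient PL (log2 fold change 1.18 ± 0.33 (SE), edgeR adjusted p = 0.0249), where the call was kept in 2 of the 6 fits that leave out a library.

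Setd7, a monomethyltransferase of H3K4 and of several other proteins, fell from In/B to RA-sufficient PL. Its level was 72.1, 116 and 111 CPM in the In/B libraries, 21.1, 13.3 and 13.3 CPM in the RA-sufficient PL libraries and 51.9, 55.5 and 31.9 CPM in the RA-deficient PL libraries. The RA-sufficient PL libraries were lowest, and no library of the 3 groups overlapped with another group. The fall was large (log2 fold change -2.60 ± 0.25 (SE), edgeR adjusted p = 5.69e-05), while RA-deficient PL missed the 2-fold limit (log2 fold change -0.93 ± 0.26 (SE), edgeR adjusted p = 0.025) and stayed above RA-sufficient PL (log2 fold change 1.54 ± 0.32 (SE), edgeR adjusted p = 0.0159).

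The H3K9 methyltransferases divided. Against In/B, Setdb1 was called higher in both PL groups and Suv39h1 in RA-deficient PL, and Ehmt1, Ehmt2 and Suv39h2 were called lower in RA-sufficient PL. Setdb1 places H3K9 trimethylation that silences retroelements (chr3:95127447-95161124, minus strand in mm9), and its level was 318, 368 and 388 CPM in the In/B libraries, 709, 939.7 and 933 CPM in the RA-sufficient PL libraries and 1180, 1123 and 1404 CPM in the RA-deficient PL libraries. No library of a PL group fell to the In/B range, and the RA-deficient PL libraries lay above all RA-sufficient PL libraries. The increase was called in RA-sufficient PL (log2 fold change 1.32 ± 0.14 (SE), edgeR adjusted p = 8.7e-05) and in RA-deficient PL (log2 fold change 1.95 ± 0.12 (SE), edgeR adjusted p = 5.64e-05), and the difference between these was under 2-fold (log2 fold change 0.52 ± 0.13 (SE), edgeR adjusted p = 0.0307).

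Ehmt1 (GLP) and Ehmt2 (G9a) form the heterodimer that places H3K9 mono- and dimethylation. Ehmt1 was at 250, 238 and 215 CPM in the In/B libraries, 88.8, 83.4 and 92.4 CPM in the RA-sufficient PL libraries and 178, 176 and 112 CPM in the RA-deficient PL libraries, and Ehmt2 at 488, 349 and 338 CPM in the In/B libraries, 175, 158 and 165 CPM in the RA-sufficient PL libraries and 254, 241 and 215 CPM in the RA-deficient PL libraries. For both genes RA-sufficient PL was lowest, In/B highest and RA-deficient PL between them, with no overlap of the 3 groups. Ehmt1 fell in RA-sufficient PL (log2 fold change -1.35 ± 0.11 (SE), edgeR adjusted p = 2.72e-05), as did Ehmt2 (log2 fold change -1.19 ± 0.16 (SE), edgeR adjusted p = 0.000278). In RA-deficient PL neither was called against In/B, with adjusted p = 0.115 for Ehmt1 and 0.032 for Ehmt2 by edgeR. Both were higher in RA-deficient than in RA-sufficient PL by less than 2-fold (0.81 and 0.51 on the log2 scale, edgeR adjusted p = 0.0251 and 0.0223).

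Suv39h1 and Suv39h2 both trimethylate H3K9 at pericentromeric heterochromatin, and Suv39h2 is the form enriched in testis. Suv39h1 was at 116, 187 and 196 CPM in the In/B libraries, 240.4, 335 and 351 CPM in the RA-sufficient PL libraries and 349, 348 and 389.6 CPM in the RA-deficient PL libraries. All PL libraries were above all In/B libraries, and the PL groups overlapped. Its rise was called in RA-deficient PL (log2 fold change 1.29 ± 0.19 (SE), edgeR adjusted p = 0.00159) and missed the 2-fold limit in RA-sufficient PL (log2 fold change 0.95 ± 0.21 (SE), edgeR adjusted p = 0.00427). The difference between the PL groups missed the threshold (log2 fold change 0.23 ± 0.14 (SE), edgeR adjusted p = 0.262). Suv39h2 was at 130.2, 115 and 113 CPM in the In/B libraries, 51.7, 57.8 and 58.9 CPM in the RA-sufficient PL libraries and 90.8, 98.1 and 92.5 CPM in the RA-deficient PL libraries. Its 3 groups did not overlap, with RA-sufficient PL lowest. Between the PL groups it was higher in RA-deficient PL by less than 2-fold (log2 fold change 0.74 ± 0.13 (SE), edgeR adjusted p = 0.00832). It fell in RA-sufficient PL (log2 fold change -1.03 ± 0.13 (SE), edgeR adjusted p = 0.000173), a call near the fold limit that was lost without In/B replicate 1 (log2 fold change -0.97 at the smallest) or RA-sufficient PL replicate 1, and it was not called in RA-deficient PL (log2 fold change -0.18 ± 0.13 (SE), edgeR adjusted p = 0.318). The ratio of Suv39h1 to Suv39h2, each per kb of exon, was 0.746, 1.36 and 1.46 in In/B, 3.89, 4.85 and 4.98 in RA-sufficient PL and 3.22, 2.97 and 3.53 in RA-deficient PL, so the balance between the pair differed between each PL group and In/B without overlap. This pair was chosen after its values were seen, and genes on the other strand overlap 11.3% and 9.98% of the exon bases of Suv39h1 and Suv39h2. Setdb2, the remaining H3K9 member, was barely expressed: its level was 0.671, 1.10 and 1.86 CPM in the In/B libraries, 0.442, 1.82 and 0.397 CPM in the RA-sufficient PL libraries and 0.840, 0.872 and 0.0437 CPM in the RA-deficient PL libraries, with overlap of all groups and no call.

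**Figure D2:**
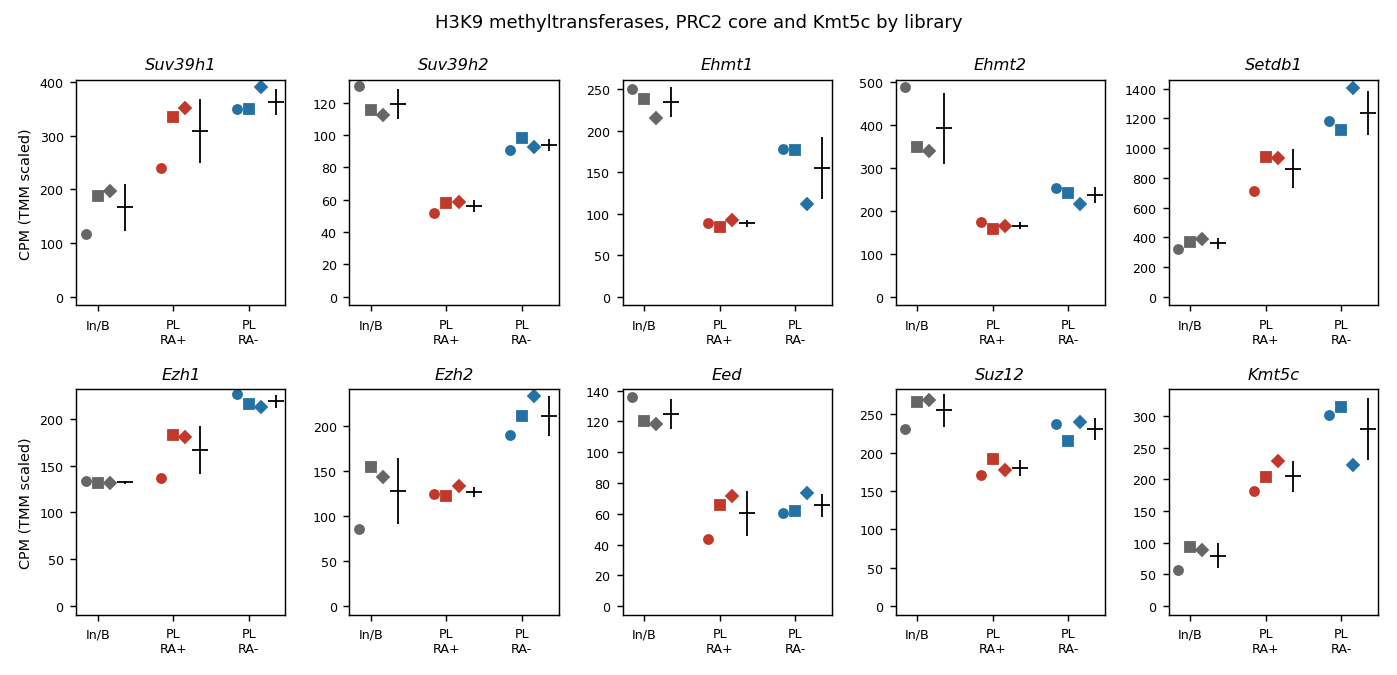
CPM (TMM scaled) of H3K9 methyltransferases, PRC2 core members and Kmt5c in each library, with a point per library (circle, square and diamond for replicates 1, 2 and 3) and the mean ± SD of 3 beside each group, where PL RA+ is RA-sufficient PL and PL RA- is RA-deficient PL. Setdb1 and Suv39h1 are higher in every PL library than in any In/B library, while Ehmt1, Ehmt2 and Suv39h2 are lowest in RA-sufficient PL.

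No PRC2 core member was called by edgeR in any comparison, although at an unadjusted p under 0.05 1 of the 4 was higher and 2 were lower in RA-sufficient PL, 2 were higher and 1 lower in RA-deficient PL, and 3 were higher in RA-deficient than in RA-sufficient PL. PRC2 places H3K27 methylation, with Ezh2 or Ezh1 as the catalytic subunit, Eed as the subunit that binds the mark and Suz12 as the scaffold. Eed was at 136, 120.2 and 118 CPM in the In/B libraries, 43.7, 65.4 and 71.6 CPM in the RA-sufficient PL libraries and 60.6, 61.9 and 73.7 CPM in the RA-deficient PL libraries. All PL libraries were below all In/B libraries and the PL groups overlapped. Its decrease in RA-sufficient PL lay just under the 2-fold limit (log2 fold change -0.995 ± 0.19 (SE), edgeR adjusted p = 0.00166) and was called by DESeq2 (-1.02) and with RLE scaling (-1.01), and that in RA-deficient PL was smaller (log2 fold change -0.77 ± 0.15 (SE), edgeR adjusted p = 0.00481). Ezh2 was at 86.2, 154 and 143 CPM in the In/B libraries, 125, 122 and 133 CPM in the RA-sufficient PL libraries and 189.5, 211 and 233 CPM in the RA-deficient PL libraries. The RA-deficient PL libraries were above all others, and In/B replicate 1 was well below In/B replicates 2 and 3. Ezh2 was higher in RA-deficient PL than in In/B (log2 fold change 0.90 ± 0.21 (SE), edgeR adjusted p = 0.0119) and than in RA-sufficient PL (log2 fold change 0.73 ± 0.12 (SE), edgeR adjusted p = 0.00626), each by less than 2-fold. Ezh1 was at 134, 132 and 131 CPM in the In/B libraries, 137, 183 and 180.2 CPM in the RA-sufficient PL libraries and 226, 216 and 213 CPM in the RA-deficient PL libraries, with RA-deficient PL again above all other libraries and a log2 fold change of 0.89 ± 0.11 (SE) against In/B (edgeR adjusted p = 0.000571). Unlike the ratio of Suv39h1 to Suv39h2, that of Ezh2 to Ezh1 per kb of exon overlapped between all groups. It was 0.772, 1.4 and 1.31 in In/B, 1.1, 0.801 and 0.889 in RA-sufficient PL and 1, 1.17 and 1.32 in RA-deficient PL. Suz12 was at 230.4, 266 and 269 CPM in the In/B libraries, 170.5, 191 and 178 CPM in the RA-sufficient PL libraries and 238, 215 and 241 CPM in the RA-deficient PL libraries. It was lower in RA-sufficient PL than in In/B (log2 fold change -0.45 ± 0.11 (SE), edgeR adjusted p = 0.00624), and in RA-deficient PL its log2 fold change was 0.02 ± 0.11 (SE), which turned to -0.29 with scaling by library size alone.

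The H3K36 methyltransferases among the members, Nsd1 (mono- and dimethylation) and Setd2 (trimethylation over gene bodies), were well expressed and not called by edgeR or DESeq2, although at an unadjusted p under 0.05 1 of them was higher in RA-sufficient PL and both were in RA-deficient PL. Nsd1 was at 443, 557 and 526 CPM in the In/B libraries, 515, 790.3 and 715 CPM in the RA-sufficient PL libraries and 741, 706 and 984 CPM in the RA-deficient PL libraries. Setd2 was at 363, 396 and 394 CPM in the In/B libraries, 305, 410.2 and 359 CPM in the RA-sufficient PL libraries and 523, 476 and 722 CPM in the RA-deficient PL libraries. For both, every RA-deficient PL library was above every In/B library, with log2 fold changes of 0.84 ± 0.15 (SE) for Nsd1 and 0.74 ± 0.16 (SE) for Setd2 (edgeR adjusted p = 0.0034 and 0.00793). Nsd1 overlapped between RA-sufficient PL and In/B, as did Setd2.

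The H4K20 enzymes moved in opposite directions. Kmt5a, which places H4K20 monomethylation, fell, and Kmt5c, which with Kmt5b converts it to di- and trimethylation, rose. Kmt5a was at 197, 234 and 230 CPM in the In/B libraries, 102, 75.1 and 67.5 CPM in the RA-sufficient PL libraries and 98.7, 92.5 and 49.6 CPM in the RA-deficient PL libraries. Every PL library was below every In/B library. The fall was called in RA-sufficient PL (log2 fold change -1.38 ± 0.17 (SE), edgeR adjusted p = 0.000165) and in RA-deficient PL (log2 fold change -1.29 ± 0.25 (SE), edgeR adjusted p = 0.00521). Kmt5c was at 57.1, 93.9 and 88.3 CPM in the In/B libraries, 181, 204 and 229.8 CPM in the RA-sufficient PL libraries and 301, 314 and 223 CPM in the RA-deficient PL libraries. Every PL library was above every In/B library, and the PL groups overlapped through RA-deficient PL replicate 3. Its rise was called in RA-sufficient PL (log2 fold change 1.42 ± 0.19 (SE), edgeR adjusted p = 0.000243) and in RA-deficient PL (log2 fold change 1.98 ± 0.22 (SE), edgeR adjusted p = 0.000394). Kmt5b was at 139, 142 and 148 CPM in the In/B libraries, 124, 156 and 153 CPM in the RA-sufficient PL libraries and 200.5, 186 and 179 CPM in the RA-deficient PL libraries, and it was not called (0.07 and 0.57 on the log2 scale against In/B). Dot1l, the H3K79 methyltransferase, was at 319, 385 and 354 CPM in the In/B libraries, 332, 436 and 439 CPM in the RA-sufficient PL libraries and 649, 666 and 723 CPM in the RA-deficient PL libraries. RA-deficient PL lay above all other libraries, and Dot1l was called there (log2 fold change 1.11 ± 0.10 (SE), edgeR adjusted p = 0.000186) and not in RA-sufficient PL (log2 fold change 0.25 ± 0.14 (SE), edgeR adjusted p = 0.138). Between the PL groups it differed by less than 2-fold (log2 fold change 0.76 ± 0.12 (SE), edgeR adjusted p = 0.00595).

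Of the other SETD genes, Setd6 fell in both PL groups. Setd6 monomethylates the NF-kappa-B subunit RelA, and it was at 60.5, 99.8 and 88.3 CPM in the In/B libraries, 16.3, 8.97 and 9.75 CPM in the RA-sufficient PL libraries and 34.7, 41.6 and 13.4 CPM in the RA-deficient PL libraries. In/B was highest in every library, and the PL groups overlapped through RA-deficient PL replicate 3. The fall was the largest of any member in RA-sufficient PL (log2 fold change -2.77 ± 0.28 (SE), edgeR adjusted p = 6.69e-05). In RA-deficient PL (log2 fold change -1.30 ± 0.39 (SE), edgeR adjusted p = 0.0343) the call was kept in 1 of 6 fits that leave out a library. Setd3, an actin histidine methyltransferase, and Setd4 and Setd5 were not called, with log2 fold changes against In/B of -0.17 to 0.28 in RA-sufficient PL and 0.16 to 0.70 in RA-deficient PL.

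The SMYD methyltransferases, which carry a SET domain split by a MYND zinc finger, gave a different call for each of 3 members. Smyd1, known from heart and skeletal muscle, was low everywhere, at 0.839, 1.25 and 1.19 CPM in the In/B libraries, 8.39, 2.61 and 4.41 CPM in the RA-sufficient PL libraries and 0.480, 0.555 and 2.19 CPM in the RA-deficient PL libraries. The RA-sufficient PL libraries were above all others. Its rise there was called (log2 fold change 2.27 ± 0.50 (SE), edgeR adjusted p = 0.00364), and RA-deficient PL overlapped with In/B. Smyd2, which methylates p53 and other proteins, was at 53.8, 45.3 and 45.5 CPM in the In/B libraries, 36.3, 35.2 and 25.6 CPM in the RA-sufficient PL libraries and 13.7, 19.3 and 11.8 CPM in the RA-deficient PL libraries. The groups fell in the order In/B, RA-sufficient PL, RA-deficient PL with no overlap. Smyd2 was called lower in RA-deficient PL than in In/B (log2 fold change -1.52 ± 0.24 (SE), edgeR adjusted p = 0.00212) and than in RA-sufficient PL (log2 fold change -1.12 ± 0.29 (SE), edgeR adjusted p = 0.0303), but not in RA-sufficient PL against In/B (log2 fold change -0.52 ± 0.19 (SE), edgeR adjusted p = 0.0357). Smyd3 was called higher in RA-deficient PL (log2 fold change 1.86 ± 0.23 (SE), edgeR adjusted p = 0.000702) and missed the limit in RA-sufficient PL (log2 fold change 0.89 ± 0.23 (SE), edgeR adjusted p = 0.00861). Smyd4 and Smyd5 were not called in any comparison.

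The PRDM family, SET-related zinc finger proteins that mostly act as transcription regulators, had 12 members, 9 of them tested in each comparison. In RA-sufficient PL 1 rose and 4 fell, and in RA-deficient PL none rose by edgeR or DESeq2 (2 were higher at an unadjusted p under 0.05) and 2 fell. The shares of all genes called were 26.1% higher and 19.3% lower in the first comparison and 11.4% and 11.8% in the second. Prdm16, known from brown fat and stem cells, was at 51.0, 44.0 and 42.5 CPM in the In/B libraries, 4.86, 9.76 and 7.54 CPM in the RA-sufficient PL libraries and 20.7, 23.0 and 12.2 CPM in the RA-deficient PL libraries. No library overlapped between the 3 groups, with RA-sufficient PL lowest. It fell in RA-sufficient PL (log2 fold change -2.57 ± 0.27 (SE), edgeR adjusted p = 7.56e-05) and in RA-deficient PL (log2 fold change -1.13 ± 0.27 (SE), edgeR adjusted p = 0.0123), and was higher in RA-deficient than in RA-sufficient PL (log2 fold change 1.34 ± 0.38 (SE), edgeR adjusted p = 0.0402). Prdm15, a regulator in pluripotent cells, was at 61.6, 52.7 and 53.2 CPM in the In/B libraries, 10.6, 14.4 and 11.2 CPM in the RA-sufficient PL libraries and 25.1, 25.4 and 12.7 CPM in the RA-deficient PL libraries. It fell in both PL groups (RA-sufficient PL, log2 fold change -2.15 ± 0.19 (SE), edgeR adjusted p = 3.52e-05, and RA-deficient PL, log2 fold change -1.24 ± 0.28 (SE), edgeR adjusted p = 0.011). The calls of Prdm15 and Prdm16 in RA-deficient PL against In/B were lost without RA-deficient PL replicate 3, with log2 fold changes of -0.98 and -0.90.

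Prdm8, known as a repressor in neurons, had the largest fold change of any member and one of the lowest levels. It was counted 4, 2 and 0 times in the In/B libraries, 84, 47 and 93 times in RA-sufficient PL and 0, 0 and 86 times in RA-deficient PL. The increase in RA-sufficient PL (log2 fold change 5.45 ± 0.76 (SE), edgeR adjusted p = 0.000324) is set against those 6 counts, and among the RA-deficient PL libraries replicate 3 alone had any. Another gene overlaps 21.9% of its exon bases. Prdm11 fell in RA-sufficient PL (log2 fold change -1.31 ± 0.50 (SE), edgeR adjusted p = 0.044), a call kept in 2 of 6 fits that leave out a library. Prdm1, Prdm2, Prdm4 and Prdm10 were not called in any comparison. Prdm12 was tested in RA-deficient PL against In/B alone and not called, and Prdm6 and Prdm14, the latter known from primordial germ cells, were below the expression filter in all comparisons, at no more than 0.72 CPM in any library.

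**Figure D3:**
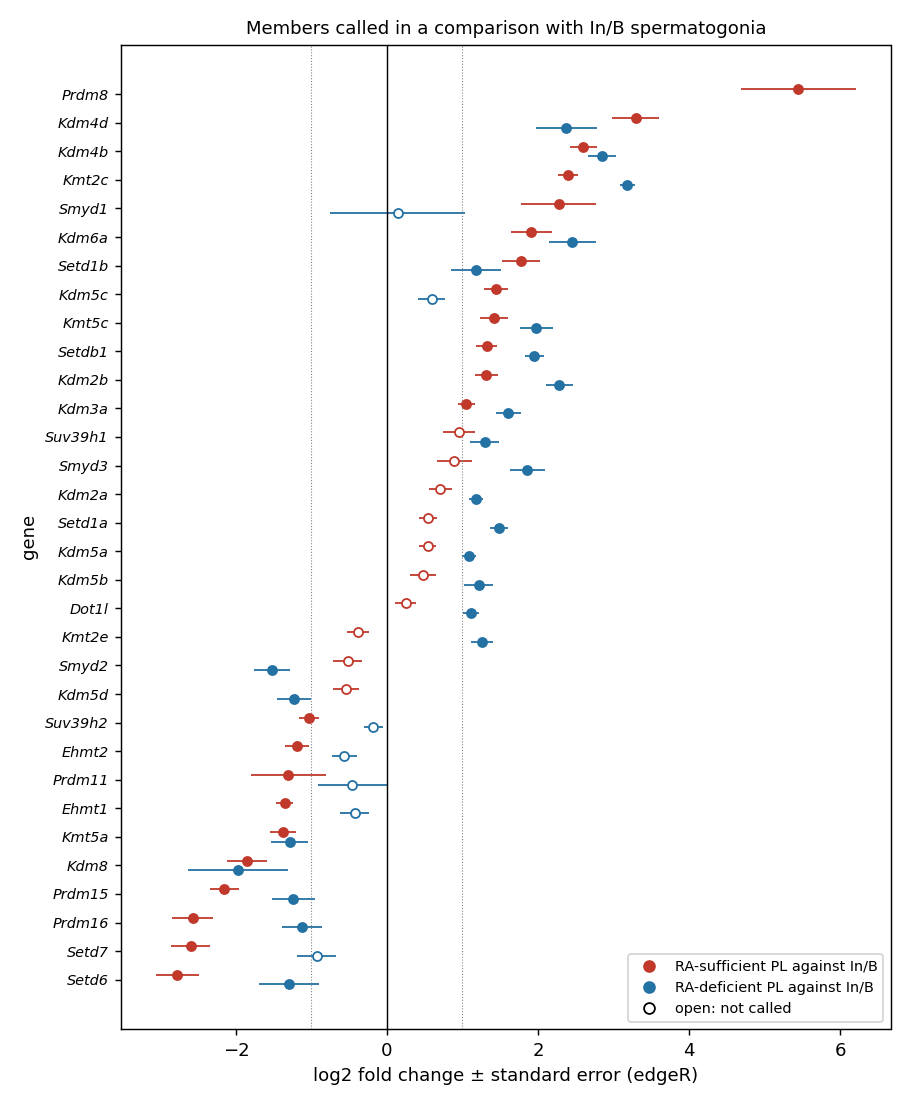
log2 fold changes (edgeR, ± SE) of members called in at least 1 comparison with In/B, for RA-sufficient PL (red) and RA-deficient PL (blue), with open points where the member was not called and dotted lines at -1 and 1. The groups share the same In/B libraries. Kmt2c reaches 2.40 and 3.18, and Setd6 -2.77 and -1.30. Prdm8 was not tested in RA-deficient PL.

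The KDM4 demethylases, which remove H3K9 trimethylation and, except for KDM4D, that of H3K36, included 2 of the largest increases. Kdm4d, the member enriched in testis (chr9:14266992-14304926, minus strand in mm9), was at 2.57, 5.78 and 4.35 CPM in the In/B libraries, 45.8, 41.6 and 32.9 CPM in the RA-sufficient PL libraries and 15.5, 15.9 and 27.3 CPM in the RA-deficient PL libraries. The 3 groups did not overlap, with RA-sufficient PL highest. Kdm4d rose in RA-sufficient PL (log2 fold change 3.29 ± 0.31 (SE), edgeR adjusted p = 4.61e-05) and in RA-deficient PL (log2 fold change 2.38 ± 0.40 (SE), edgeR adjusted p = 0.00274), and was lower in RA-deficient than in RA-sufficient PL (log2 fold change -1.04 ± 0.30 (SE), edgeR adjusted p = 0.0412). Kdm4b was at 13.8, 19.1 and 17.4 CPM in the In/B libraries, 82.3, 108 and 104 CPM in the RA-sufficient PL libraries and 94.0, 107 and 120.5 CPM in the RA-deficient PL libraries. All PL libraries were far above In/B and the PL groups overlapped. The rise was called in RA-sufficient PL (log2 fold change 2.60 ± 0.18 (SE), edgeR adjusted p = 1.52e-05) and in RA-deficient PL (log2 fold change 2.84 ± 0.19 (SE), edgeR adjusted p = 5.86e-05), and the difference between these had an SE larger than itself (log2 fold change 0.13 ± 0.15 (SE), edgeR adjusted p = 0.577). Kdm4a was at 45.6, 37.8 and 36.5 CPM in the In/B libraries, 67.3, 61.0 and 57.6 CPM in the RA-sufficient PL libraries and 30.3, 17.1 and 33.3 CPM in the RA-deficient PL libraries. RA-sufficient PL was highest and RA-deficient PL lowest, with no overlap of the groups. Kdm4a was called lower in RA-deficient than in RA-sufficient PL (log2 fold change -1.21 ± 0.27 (SE), edgeR adjusted p = 0.0196), and not against In/B (0.69 in RA-sufficient PL and -0.41 in RA-deficient PL). Kdm4c was not called, with log2 fold changes of -0.32, -0.01 and 0.19 in the 3 comparisons. Per kb of exon, the ratio of Kdm4b to Kdm4a was 0.358, 0.598 and 0.564 in In/B, 1.44, 2.09 and 2.13 in RA-sufficient PL and 3.67, 7.36 and 4.27 in RA-deficient PL, without overlap of the groups (a pair chosen after its values were seen).

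Of the demethylases of H3K27, the X-linked Kdm6a (UTX) rose and Kdm6b (JMJD3) separated the PL groups. Kdm6a was at 41.8, 79.4 and 78.3 CPM in the In/B libraries, 171, 276 and 272 CPM in the RA-sufficient PL libraries and 258, 259 and 454 CPM in the RA-deficient PL libraries. All PL libraries were above In/B, and RA-deficient PL replicate 3 was well above replicates 1 and 2. The rise was called in RA-sufficient PL (log2 fold change 1.91 ± 0.27 (SE), edgeR adjusted p = 0.000356) and in RA-deficient PL (log2 fold change 2.45 ± 0.31 (SE), edgeR adjusted p = 0.000794). Kdm6b (chr11:69212010-69227177, minus strand in mm9) was at 296, 278 and 243 CPM in the In/B libraries, 163, 167 and 188 CPM in the RA-sufficient PL libraries and 407, 418 and 419 CPM in the RA-deficient PL libraries. Its libraries were tightly grouped, In/B lying between the PL groups, and no library overlapped with another group. Kdm6b was lower in RA-sufficient PL than in In/B (log2 fold change -0.61 ± 0.12 (SE), edgeR adjusted p = 0.002) and higher in RA-deficient PL (log2 fold change 0.77 ± 0.11 (SE), edgeR adjusted p = 0.00123), each by less than 2-fold, and the difference between the PL groups was called (log2 fold change 1.26 ± 0.095 (SE), edgeR adjusted p = 0.00079). This call was kept in all 6 fits that leave out a library.

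Among the KDM5 demethylases of H3K4, the X-linked Kdm5c and the Y-linked Kdm5d moved apart. Kdm5c rose in RA-sufficient PL (log2 fold change 1.44 ± 0.16 (SE), edgeR adjusted p = 1e-04), was higher in RA-deficient PL by less than 2-fold (log2 fold change 0.59 ± 0.18 (SE), edgeR adjusted p = 0.0344), and lay just under the limit between the PL groups (log2 fold change -0.97 ± 0.12 (SE), edgeR adjusted p = 0.00254). Kdm5d was at 27.8, 27.0 and 25.0 CPM in the In/B libraries, 17.2, 16.8 and 18.8 CPM in the RA-sufficient PL libraries and 10.96, 11.1 and 8.18 CPM in the RA-deficient PL libraries. The groups fell in the order In/B, RA-sufficient PL, RA-deficient PL with no overlap. The fall was called in RA-deficient PL (log2 fold change -1.23 ± 0.23 (SE), edgeR adjusted p = 0.00463) and not in RA-sufficient PL (log2 fold change -0.54 ± 0.17 (SE), edgeR adjusted p = 0.0224). Kdm5a and Kdm5b were called higher in RA-deficient PL (1.09 and 1.21 on the log2 scale, edgeR adjusted p = 0.000158 and 0.00204) and were higher by less than 2-fold in RA-sufficient PL (0.54 and 0.48). Between the PL groups both differed by less than 2-fold, with 0.43 for Kdm5a and 0.62 for Kdm5b.

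**Figure D4:**
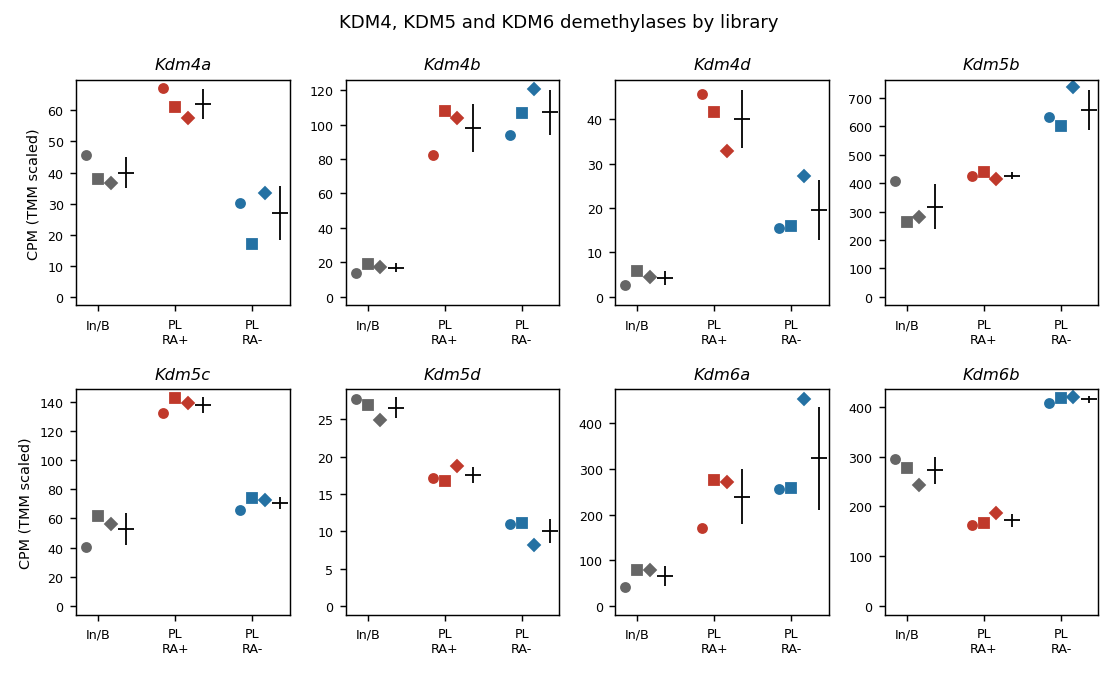
CPM (TMM scaled) of KDM4, KDM5 and KDM6 demethylases in each library, with a point per library (circle, square and diamond for replicates 1, 2 and 3) and the mean ± SD of 3 beside each group, where PL RA+ is RA-sufficient PL and PL RA- is RA-deficient PL. Kdm4b, Kdm4d and Kdm6a are higher in every PL library than in any In/B library. Kdm5d is lowest in RA-deficient PL, and Kdm6b is highest there.

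The remaining demethylases included more increases in PL. Kdm2b, an H3K36 demethylase that brings a Polycomb complex to CpG islands, was at 46.5, 39.2 and 38.3 CPM in the In/B libraries, 85.4, 99.6 and 112 CPM in the RA-sufficient PL libraries and 157, 162 and 219 CPM in the RA-deficient PL libraries. The groups rose in the order In/B, RA-sufficient PL, RA-deficient PL with no overlap. Kdm2b was called in RA-sufficient PL (log2 fold change 1.31 ± 0.15 (SE), edgeR adjusted p = 0.000137) and in RA-deficient PL (log2 fold change 2.28 ± 0.18 (SE), edgeR adjusted p = 0.000113). Its paralog Kdm2a was called in RA-deficient PL (log2 fold change 1.18 ± 0.089 (SE), edgeR adjusted p = 0.000101) and was higher by less than 2-fold in RA-sufficient PL (log2 fold change 0.70 ± 0.15 (SE), edgeR adjusted p = 0.00346). The difference between the PL groups missed the threshold (log2 fold change 0.36 ± 0.14 (SE), edgeR adjusted p = 0.0965). Kdm3a, an H3K9 demethylase needed for sperm maturation, rose in RA-sufficient PL (log2 fold change 1.05 ± 0.11 (SE), edgeR adjusted p = 7.65e-05), a call lost without In/B replicate 1 (0.97 on the log2 scale), and in RA-deficient PL (log2 fold change 1.61 ± 0.16 (SE), edgeR adjusted p = 0.000269). Kdm3b was not called, at 0.18 and 0.84 against In/B. Kdm8 (JMJD5), a JmjC-domain protein, was at 20.6, 20.9 and 22.5 CPM in the In/B libraries, 3.97, 7.15 and 5.91 CPM in the RA-sufficient PL libraries and 7.48, 6.18 and 0.831 CPM in the RA-deficient PL libraries. All PL libraries were below In/B. It fell in RA-sufficient PL (log2 fold change -1.85 ± 0.26 (SE), edgeR adjusted p = 0.000376) and in RA-deficient PL (log2 fold change -1.97 ± 0.66 (SE), edgeR adjusted p = 0.0486), where the call was kept in 1 of 6 fits that leave out a library and replicate 3 was far below replicates 1 and 2. Kdm1a (LSD1), the founding flavin-dependent H3K4 demethylase, was not called and changed little (-0.19, -0.00 and 0.08 in the 3 comparisons). Kdm1b was lower in RA-sufficient PL by less than 2-fold (log2 fold change -0.90 ± 0.15 (SE), edgeR adjusted p = 0.000851), and Kdm7a was not called, with -0.55 between the PL groups.

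The members called between RA-deficient and RA-sufficient PL numbered 7: Setd7, Kmt2e, Prdm16 and Kdm6b were higher in RA-deficient PL, and Kdm4a, Smyd2 and Kdm4d were lower. Their values are given with their families above. The Sertoli cell genes, at 2789 to 3618 CPM in RA-sufficient PL and 286 to 503 CPM in RA-deficient PL, and the spermatogonial genes, at 754 to 852 and 1323 to 3241 CPM, moved with this comparison too, and their part was not tested. Kmt2e and Kdm6b kept the call in all 6 fits that leave out a library, Setd7 in 4, Kdm4a in 2, and Prdm16, Smyd2 and Kdm4d in 1. Without RA-deficient PL replicate 3, members called higher increased from 4 to 7 of 60 and those called lower from 3 to 4, where all genes called increased to 8.01% higher and 20.4% lower.

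**Figure D5:**
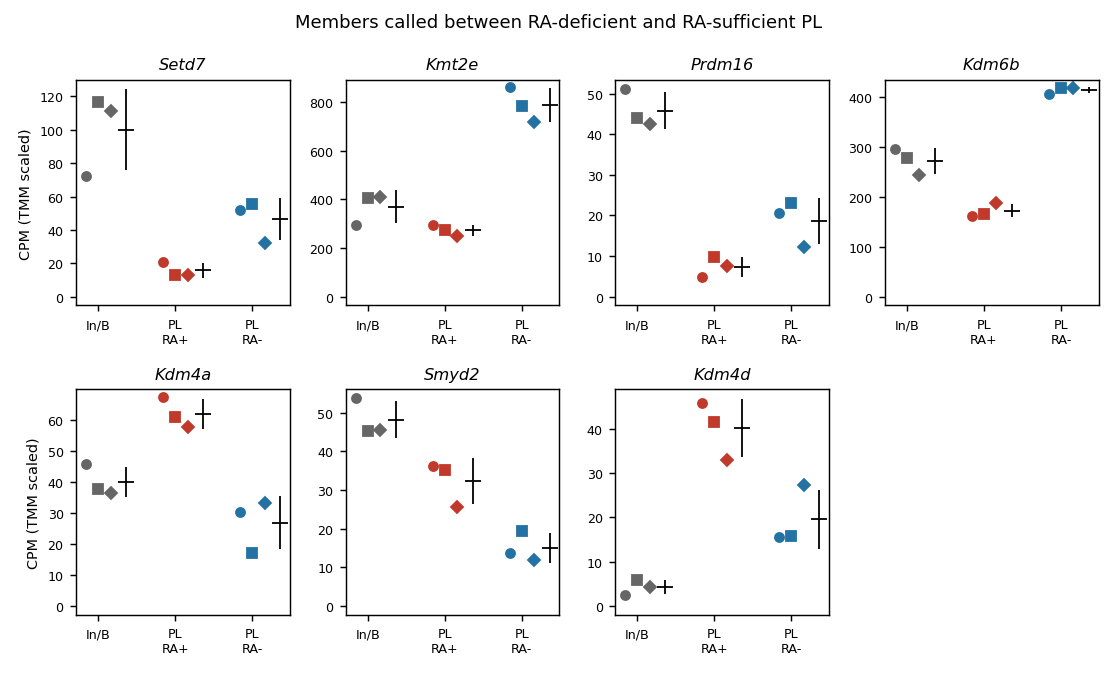
CPM (TMM scaled) of the 7 members called between RA-deficient PL (PL RA-) and RA-sufficient PL (PL RA+), with In/B for reference, a point per library (circle, square and diamond for replicates 1, 2 and 3) and the mean ± SD of 3 beside each group. Setd7, Kmt2e, Prdm16 and Kdm6b are higher in every RA-deficient PL library than in any RA-sufficient PL library, and Kdm4a, Smyd2 and Kdm4d are lower.

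Levels can be compared between genes per kb of exon, as far as the annotation used for the lengths (GENCODE M1, mm9) matches that of the counts. In In/B the highest members were Setd1a (84.6 ± 4.52 CPM per kb, SD, n = 3), Ehmt2 (71.4 ± 15.2) and Eed (56.3 ± 4.42), the latter close to Kmt2b (55.9 ± 1.42) and Kdm2a (55.2 ± 3.16) within its spread. In RA-sufficient PL they were Setdb1 (126 ± 19.2 CPM per kb), Setd1a (119 ± 15.3) and Kdm2a (86.5 ± 17.2), with the first pair inside their spread. In RA-deficient PL they were Setd1a (210.1 ± 29.6 CPM per kb), Setdb1 (180.3 ± 21.7), Kdm2a (111 ± 1.87) and Kmt2e (105 ± 9.45). Setd1a and Hsd3b7 share exon bases, as given above, so the place of Setd1a is uncertain. The ratio of Kmt2c to Kmt2a per kb was 0.234, 0.174 and 0.187 in In/B, 1.87, 1.53 and 1.55 in RA-sufficient PL and 1.64, 1.68 and 2.07 in RA-deficient PL. Kmt2a was thus the more abundant of this pair, chosen after its values were seen, in In/B, and Kmt2c in both PL groups. That of Kdm5c to Kdm5d was 1.13, 1.76 and 1.73 in In/B, 5.92, 6.55 and 5.73 in RA-sufficient PL and 4.62, 5.14 and 6.84 in RA-deficient PL. This pair, like that of Ezh2 and Ezh1, was also chosen after its values were seen.

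Genes that work with these enzymes were taken as 4 lists: partner subunits of their complexes, lysine enzymes under other names, arginine methyltransferases and readers of the marks, 65 of whose 71 names were in the table. In RA-sufficient PL against In/B, 9 of 63 tested were higher and 18 lower (against 26.1% and 19.3% of all genes, with a median log2 fold change of -0.48 against 0.04), with readers at 2 higher and 8 lower of 18. Among those called, the largest increases were Rcor1, the LSD1 corepressor subunit (log2 fold change 2.44 ± 0.32 (SE), edgeR adjusted p = 0.00024), Carm1, an H3 arginine methyltransferase (log2 fold change 2.37 ± 0.29 (SE), edgeR adjusted p = 0.000179), and Phf2, an H3K9 demethylase (log2 fold change 1.98 ± 0.50 (SE), edgeR adjusted p = 0.00768). Phf2 was uneven, at 103, 34.7 and 28.3 CPM in RA-sufficient PL replicates 1 to 3, against 8.61 to 17.9 CPM in In/B. The largest decreases were Cbx2, a Polycomb reader of H3K27 trimethylation (log2 fold change -3.29 ± 0.28 (SE), edgeR adjusted p = 3.24e-05), Rcor2, the paralog of Rcor1 (log2 fold change -2.84 ± 0.22 (SE), edgeR adjusted p = 2.26e-05), and Phf19, a PRC2 accessory subunit (log2 fold change -2.56 ± 0.38 (SE), edgeR adjusted p = 0.000461). Rcor1 and Rcor2 thus changed in opposite directions: Rcor1 was at 6.65, 14.4 and 8.82 CPM in the In/B libraries, 70.4, 42.6 and 43.4 CPM in the RA-sufficient PL libraries and 14.4, 10.5 and 24.1 CPM in the RA-deficient PL libraries, and Rcor2 at 164, 119 and 116 CPM in the In/B libraries, 13.3, 19.1 and 21.0 CPM in the RA-sufficient PL libraries and 75.9, 78.6 and 48.5 CPM in the RA-deficient PL libraries.

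In RA-deficient PL against In/B, 8 of 64 were higher and 9 lower, near the 11.4% and 11.8% of all genes (median -0.11, against 0.00). Among those called, Carm1 (log2 fold change 2.92 ± 0.28 (SE), edgeR adjusted p = 0.000212), Zfpm1, a zinc finger cofactor of GATA factors kept in the list as it was fixed (log2 fold change 2.21 ± 0.42 (SE), edgeR adjusted p = 0.00502), and Bptf, a reader of H3K4 trimethylation (log2 fold change 1.99 ± 0.16 (SE), edgeR adjusted p = 0.000113), rose most, and Cdyl2, a chromodomain protein (log2 fold change -2.35 ± 0.20 (SE), edgeR adjusted p = 0.000138), Dpy30, a core subunit of the H3K4 complexes (log2 fold change -2.02 ± 0.30 (SE), edgeR adjusted p = 0.00157), and Cbx2 (log2 fold change -1.60 ± 0.30 (SE), edgeR adjusted p = 0.00454) fell most. Between the PL groups 4 of 63 were higher and 3 lower, against 4.47% and 11% of all genes. Rcor2 (log2 fold change 1.93 ± 0.26 (SE), edgeR adjusted p = 0.00358), Cbx2 (log2 fold change 1.59 ± 0.39 (SE), edgeR adjusted p = 0.0267) and Ncoa6, a subunit of the KMT2C and KMT2D complexes (log2 fold change 1.14 ± 0.11 (SE), edgeR adjusted p = 0.00111), were higher in RA-deficient PL, and Rcor1 (log2 fold change -1.69 ± 0.38 (SE), edgeR adjusted p = 0.0194), Cdyl2 (log2 fold change -1.41 ± 0.27 (SE), edgeR adjusted p = 0.0115) and Prmt2 (log2 fold change -1.01 ± 0.29 (SE), edgeR adjusted p = 0.0425) lower.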

How the data were processed

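RNA of sorted germ cells was measured by stranded, poly(A)-selected RNA-seq (single-end reads of 75 bp) in 9 libraries, 3 per group. Per the labels and the study's methods, the authors trimmed reads with cutadapt 1.9, aligned them to mm9 with STAR 2.5.2b and counted them per gene with featureCounts. The deposited values are raw counts per gene. The annotation and the strand setting of the counting are not given in the sources used here. No column of the table was left unused, the number of such columns being 0, and groups came from the sample labels. Of 66 gene symbols that matched the families, 2 had under 30 counts and 1 was left out. A member among the 63 enters the counts and is not reported here by itself. The members and the lists were chosen with earlier results of these data known.

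Each of the 3 comparisons was fitted on its 6 libraries with edgeR 4.0.16 in R 4.3.3: genes were kept by filterByExpr, TMM factors were computed, and the quasi-likelihood test was run across all genes kept, with Benjamini-Hochberg adjustment. A gene was called at an adjusted p under 0.05 and an absolute log2 fold change over 1. CPM were scaled by TMM factors of all 9 libraries, and a library's floor of 3 counts was 0.113 to 0.221 CPM. Floors cover counting error only. Exon lengths and positions are from GENCODE M1 (mm9) and were found for members under their current or older symbols, and figures were drawn with matplotlib 3.10.9. The fits were tested on simulated data. Genes named with values in every library were, by rule, up to 6 largest called increases and 6 largest decreases per comparison and the H3K9, PRC2, H3K36, H3K79 and H4K20 members, and from the 4 lists up to 3 each way. Alternatives were RLE and library-size scaling, no filter and a filter at a mean of 50 counts, a fit of all 9 libraries, a replicate block, DESeq2 1.42.0, a test against a fold change of 2, other thresholds, and leaving out each library.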

Additional observations from a re-analysis of the deposited data

Results flagged for a closer look

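For 7 members the change from In/B differed by over 2-fold between RA-deficient and RA-sufficient PL at an adjusted p under 0.05. This was read from the direct comparison of the PL groups (edgeR, adjusted over all genes, 3 libraries against 3). With no fold limit there were 28 such members. DESeq2 called 5 members higher and 4 lower (5.18% and 13.1% of all genes), adding Setd6 and Smyd1. On the log2 scale, the level in RA-deficient PL minus that in RA-sufficient PL was 1.54 for Setd7 (adjusted p = 0.0159), 1.52 for Kmt2e (adjusted p = 0.000842), 1.34 for Prdm16 (adjusted p = 0.0402) and 1.26 for Kdm6b (adjusted p = 0.00079). The difference was negative for Kdm4a (-1.21, adjusted p = 0.0196), Smyd2 (-1.12, adjusted p = 0.0303) and Kdm4d (-1.04, adjusted p = 0.0412). In all 7 the 3 RA-deficient PL libraries lay on the same side of the 3 RA-sufficient PL libraries. The call on these same libraries makes this likely, so it adds no support. Of all genes tested, 20.1% (higher) and 27.3% (lower) were separated in this way. Kdm6b stood out by its narrow spread: 163, 167 and 188 CPM in RA-sufficient PL and 407, 418 and 419 CPM in RA-deficient PL.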

How the results depend on the processing

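Most results for named members kept their direction and their side of the threshold. Scaling by library size alone gave 10 members higher against 9 lower in RA-deficient PL against In/B (52.6% higher, in place of 70.8%), a median of 0.0052 there, and between the PL groups 3 higher and 4 lower (42.9% higher, in place of 57.1%) and a median of 0.21. A filter at a mean of 50 counts gave a median of 0.45 in RA-deficient PL against In/B. The test against a fold change of 2 left 7 decreases in RA-sufficient PL, 10 increases and 0 decreases in RA-deficient PL, and 1 higher and 0 lower between the PL groups. At an adjusted p of at most 0.01, 3 were lower in RA-deficient PL, and 2 higher and 0 lower between the PL groups. With no fold limit the counts were 22 up and 19 down in RA-sufficient PL, 29 up in RA-deficient PL, and 23 higher and 5 lower between the PL groups. Leaving out each library in turn gave 12 to 13 increases and 8 to 11 decreases in RA-sufficient PL, 16 to 17 higher and 4 (without RA-deficient PL replicate 3) to 7 lower in RA-deficient PL, and 2 to 7 higher and 0 to 4 lower between the PL groups, with medians of 0.01 to 0.11, 0.22 to 0.44 and 0.35 to 0.46. Same-numbered libraries did not deviate together (correlations of -0.29 to 0.17 across genes), so the numbers were not taken to pair them. With the replicate number as a block there were 12 increases and 11 decreases in RA-sufficient PL, with 16 and 7 in RA-deficient PL, and 3 and 2 between the PL groups, where Kdm4d and Prdm16 lost theirs.

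Direction turned only where the member was not called in that same comparison. For RA-sufficient PL against In/B, Ezh2 gave -0.00062 in the fit of 9 libraries and -0.18 without In/B replicate 1, Setdb2 -1.47 to 0.035 (the latter without In/B replicate 3) when a library was left out, and Setd2 0.00699 with the filter at 50 counts and -0.16 to 0.046 (the latter without RA-sufficient PL replicate 1) when a library was left out. In RA-deficient PL against In/B, Suz12 gave -0.29 with library-size scaling, -0.00137 with no filter, -0.11 in the fit of 9 libraries, -0.0420 without In/B replicate 1, and -0.025 and -0.00262 without RA-deficient PL replicates 1 and 3, against up to 0.066 without In/B replicate 3. Between the PL groups, Eed gave -0.0660 with library-size scaling and -0.047 without RA-sufficient PL replicate 1, Setdb2 -0.98 to 0.46 (the latter without RA-sufficient PL replicate 2) when a library was left out, and Kmt5a 0.00537 in the fit of 9 libraries, -0.19 without RA-deficient PL replicate 1, 0.19 without RA-sufficient PL replicate 1 and 0.24 without RA-deficient PL replicate 3. The cause was not tested. Low counts limit the results for Prdm6, Prdm8, Prdm12, Prdm14 and Setdb2, which lay near the floor in several libraries.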
